A study of Homo sapiens with 8 samples.

Results

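Histone genes of Jurkat cells, an established human T-ALL line, were examined after loss of CBAP, the adaptor protein encoded by TMEM102. They are the entries of the expression table whose older symbols begin with HIST and a digit followed by H, or with H1F, H2AF or H3F, which gave 47 of 13453 entries. Of these, 36 were replication-dependent histone genes (1 of H1, 11 of H2A, 12 of H2B, 3 of H3, 8 of H4, and 1 joint entry of HIST1H2AD and HIST1H3D) and 11 were variant histone genes. RNA-seq was done on 8 libraries, 2 each of 4 conditions. The shRNA set held sh-Ctrl cells, which carried a control shRNA, and sh-CBAP cells, which carried an shRNA against CBAP, both as stable lentiviral lines selected with puromycin. The CRISPR set held CBAP-KO cells, made as single-cell clones with CRISPR, that expressed GFP (CBAP-KO+GFP) or a CBAP-GFP fusion (CBAP-reconstituted). Both conditions of the CRISPR set were thus CBAP-KO cells. The paper lists the lines with GFP and with CBAP-GFP as separate stable clones, so clone and CBAP cannot be told apart in this set. Which of the study's shRNAs was used, and whether the libraries of a condition came from separate cultures, is not given in the sources used here, so the p-values measure only the spread between these libraries, which may be technical.

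TMEM102 was lower in sh-CBAP than in sh-Ctrl cells (log2 fold change -0.51, standard error 0.096, adjusted p = 0.0287 from limma). All 4 CRISPR-set libraries had TMEM102 listed at 0, those labelled CBAP-reconstituted included, so its level gave no check on their labels. Of 12 markers of T lymphoblasts, 10 were above 1 FPKM in every library, while the lowest values of CD5 and PTCRA were 0.180 and 0. Of 11 markers of other cell types 3 were listed. COL1A1 was above 1 FPKM in every library (1.07 to 2.15). CD79A, a B cell marker, ranged from 0.732 to 22.5 and KRT18 from 0 to 2.50. FPKM is scaled to transcript length and to mapped fragments, which puts genes on a common scale, but the depth behind each value is unknown.

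Histones H2A, H2B, H3 and H4 form the core of the nucleosome, and H1 binds the linker DNA between nucleosomes. Replication-dependent histone genes lie in clusters, lack introns and are transcribed mainly in S phase, when new DNA is packaged. Their mRNA ends in a conserved stem-loop that is bound by SLBP, in place of a poly(A) tail, although some of these genes also yield polyadenylated mRNA. Variant histones are made throughout the cell cycle from genes outside these clusters, mostly as polyadenylated mRNA, and serve in DNA repair, transcription or the silencing of chromatin. H2AFX is known to yield both kinds of mRNA. In these bulk libraries, fewer cells in S phase and less histone RNA per cell cannot be told apart.

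The stem-loop set the classes apart in the genome sequence. A pattern of 16 letters, GG, 2 bases of any kind, CTT, any base, T, any base, A, 3 bases of any kind and CC, was searched on the coding strand in the 100 bases after the stop codon of each gene's canonical transcript (GENCODE 44 on GRCh37, the build the authors aligned to). It was found in 33 of the 33 replication-dependent genes with a placed coding sequence and in 1 of 10 variants (H2AFX). Over all 20163 protein-coding genes, the histone genes included, it was found in 73 (0.362%). The form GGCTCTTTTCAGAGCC was shared by 19 histone genes. The stem-loops of 5 genes described below are shown with 5 bases on each side, 5′ to 3′ on the strand of the gene, with the searched letters in capitals.
HIST1H2BK, chr6:27114145-27114160 (minus strand, coordinates of the capitals): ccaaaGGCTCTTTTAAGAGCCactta
HIST2H2BE, chr1:149857738-149857753 (minus strand): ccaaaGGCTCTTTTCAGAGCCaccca
HIST1H1C, chr6:26055972-26055987 (minus strand): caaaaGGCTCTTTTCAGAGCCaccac
HIST3H2A, chr1:228645070-228645085 (minus strand): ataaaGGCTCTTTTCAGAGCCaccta
H2AFX, chr11:118965608-118965623 (minus strand): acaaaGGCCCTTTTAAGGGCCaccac
Of the stem-loops found, the form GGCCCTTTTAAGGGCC was that of H2AFX alone, and HIST1H2BK shared its form with 3 other genes.

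Promoter letters also differed between families. In RefSeq windows of 250 bases before to 50 after the transcription start (GRCh38.p14, both strands), the octamer ATTTGCAT, the recognition letters of OCT1 at H2B genes, was found in 15 of 32 replication-dependent genes with a window, against 1.77% of 35116 promoters. It was present in 6 of 9 H2B, 8 of 12 H2A, 1 of 3 H3 and 0 of 7 H4 promoters. Some H2A and H2B genes start close together on opposite strands, such as HIST1H2AG and HIST1H2BJ. The same octamer can then be counted for both, so these counts are not of separate stretches. The letters CCAAT stood in 26 of the 32 and in 34.6% of all promoters, and TATAA in 28 of the 32 and in 20.4% of all. The windows before the start of HIST1H2BK and HIST2H2BE are shown because these H2B genes moved together in both sets. Capitals mark the octamer, CCAAT and TATAA on either strand, where TTATAA is an overlap of TATAA read on both strands.
HIST1H2BK, chr6:27146859-27147108 (GRCh38.p14, minus strand): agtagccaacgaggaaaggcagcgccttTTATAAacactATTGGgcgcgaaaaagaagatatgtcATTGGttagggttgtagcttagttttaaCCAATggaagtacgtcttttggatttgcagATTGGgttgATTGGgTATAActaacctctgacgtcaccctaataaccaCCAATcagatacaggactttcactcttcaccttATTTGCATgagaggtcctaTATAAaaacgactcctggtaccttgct
HIST2H2BE, chr1:149886683-149886932 (GRCh38.p14, minus strand): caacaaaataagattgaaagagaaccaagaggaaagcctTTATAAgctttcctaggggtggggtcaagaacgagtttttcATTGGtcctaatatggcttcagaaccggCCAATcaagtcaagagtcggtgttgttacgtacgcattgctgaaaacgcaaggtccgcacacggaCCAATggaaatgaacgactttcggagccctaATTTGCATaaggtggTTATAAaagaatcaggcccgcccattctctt
The octamer began 46 bases before the start in both windows. HIST1H2BH, an H2B gene that did not move with them, held the octamer too. So did HIST2H2AC, which starts close to HIST2H2BE on the opposite strand (chr1:149858468 and 149858232 on GRCh37). The printed HIST2H2BE window thus lies before both genes. HIST2H2AC was lower in both sets without overlap but not called (log2 -0.42 and -0.28), opposite to HIST2H2BE in the CRISPR set. These matches describe the windows and no binding was measured.

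On GRCh37, 27 of the 33 placed replication-dependent genes lay on chromosome 6 between 26045612 and 27861669 and the other 6 on chromosome 1, and all 33 had a single exon in their canonical transcript. The placed variants were spread over 11 chromosomes. H2AFY2 lies at chr10:71812300-71872038 with 9 exons in its canonical transcript, and H3F3A at chr1:226249552-226259720 with 4, both on the plus strand.

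Replication-dependent histone genes were listed at low levels. Their mean FPKM over the 8 libraries had a median of 0.959 and ranged from 0.190 for HIST1H2AE to 10.5 for HIST1H2BK, whereas the variants had a median of 196, from 2.18 for H2AFY2 to 517 for H3F3AP4. All entries of the table had a median of 9.60. The paper does not say whether RNA was selected by its poly(A) tail, which most replication-dependent histone mRNA lacks. The FPKM of the classes may therefore not be comparable as amounts of mRNA, and this was not tested. All 11 variants but only 17 of the 36 replication-dependent genes passed the filter of a mean FPKM of at least 1, so counts of calls on the latter describe the higher part of the class. HIST1H2BK (H2B), HIST3H2A (H2A) and HIST1H1C (linker histone H1.2) together made up 20.1 to 33.7% of the summed replication-dependent FPKM in the shRNA set and 48.3 to 58.4% in the CRISPR set. H3F3AP4, H2AFZ and H1FX made up 58.0 to 67.8% of the summed variant FPKM.

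**Figure D1:**
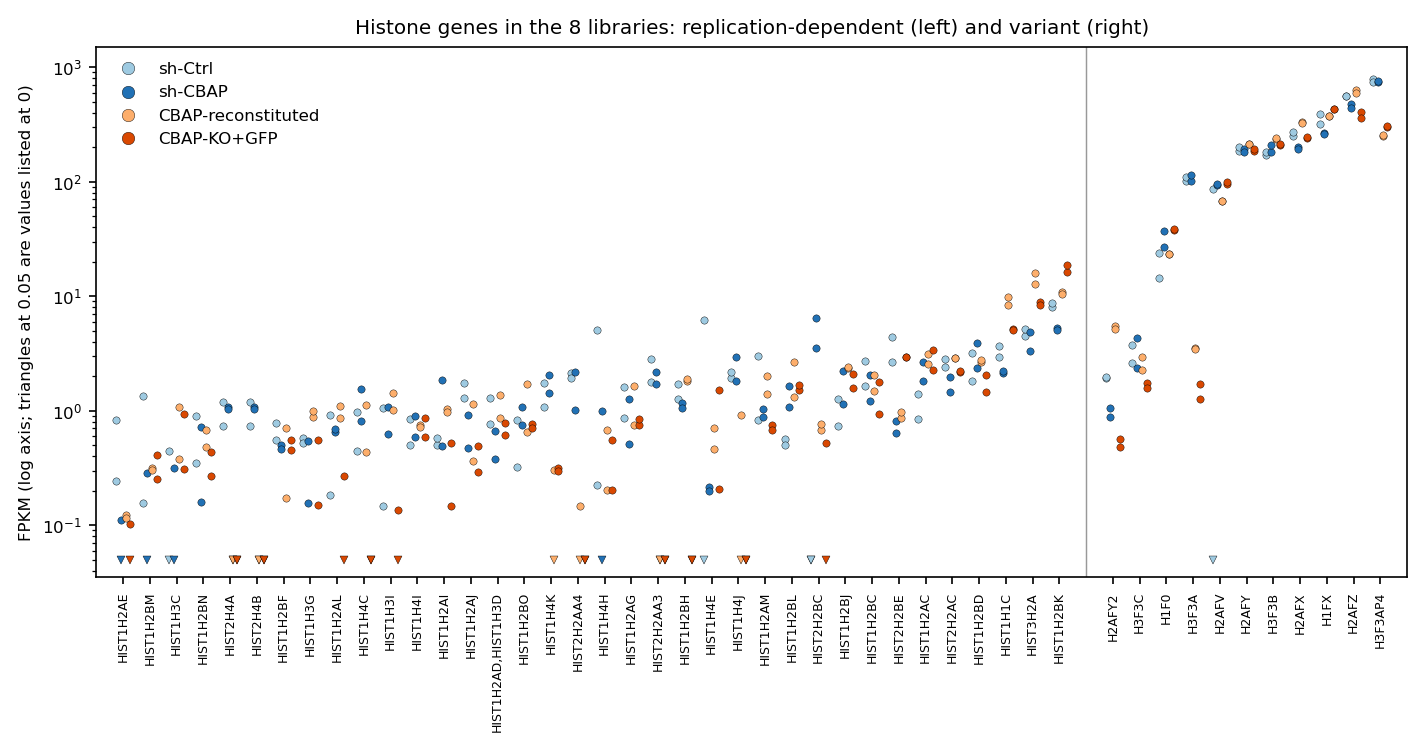
FPKM of all 47 histone entries (log axis) in the 8 libraries, coloured by condition and ordered within each class by mean FPKM, with values listed at 0 drawn as triangles. Most replication-dependent genes lie near 1 FPKM, while 9 of the 11 variants have mean FPKM values of 28.2 or more.

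The summed FPKM of the 36 replication-dependent entries was 67.2 and 52.1 in the sh-Ctrl libraries and 48.6 and 52.6 in the sh-CBAP libraries, which overlapped. In the CRISPR set it was 66.5 and 68.8 in the libraries labelled CBAP-reconstituted and 53.7 and 55.4 in CBAP-KO+GFP cells, with no overlap. The H2A part of this sum was 25.4 and 26.4 against 15.98 and 16.3. The H2B part was 24.4 and 26.6 against 27.2 and 31.4, a rise carried by HIST1H2BK (10.9 and 10.5 against 16.4 and 18.8). Without HIST1H2BK, the H2B part was lower in CBAP-KO+GFP cells, as the H2A part was. The summed variant FPKM was 2562 and 2399 in sh-Ctrl against 2281 and 2289 in sh-CBAP cells. It was 2138 and 2115 in the libraries labelled CBAP-reconstituted against 1913 and 1890 in CBAP-KO+GFP cells. Variant sums were lower in the CBAP-deficient libraries of both sets without overlap, but the summed FPKM of the whole table differed too. The ratio of CBAP-KO+GFP to CBAP-reconstituted means was 0.897 for the whole table, 0.894 for the variants and 0.806 for the replication-dependent genes. For sh-CBAP over sh-Ctrl these ratios were 0.969, 0.921 and 0.848. None of these sums was tested.

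Over all 36 replication-dependent entries, also those under the filter, both sh-CBAP libraries lay above both sh-Ctrl libraries for 3 and below them for 9, where 16.3% and 31% of all entries of the table did so. Both CBAP-KO+GFP libraries lay above both libraries labelled CBAP-reconstituted for 2 and below them for 16, against 41.7% and 41.2% of all entries. Among the 11 variants the corresponding counts were 2 and 4 in the shRNA set and 4 and 7 in the CRISPR set. The lower counts of the replication-dependent genes lay near the background in both sets, and few of them lay higher in the CRISPR set.

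In the shRNA set, replication-dependent genes were called in different directions. At an adjusted p under 0.05, 3 of the 17 tested were called, against 12.3% of the 11427 genes tested. HIST2H2BC was higher, where 3.62% of all genes were called higher, and HIST1H2BK and HIST2H2BE were lower, where 8.7% were called lower. The median log2 change of the 17 was -0.24, beside -0.06 over all genes tested. Without sh-Ctrl replicate 1 this median was 0.02.

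HIST1H2BK had FPKM values of 8.07 and 8.70 in sh-Ctrl and of 5.28 and 5.02 in sh-CBAP cells. Both sh-CBAP libraries were the lower ones, and the change on the log2 scale was -0.61 (standard error 0.085, adjusted p = 0.0146). HIST2H2BE, an H2B gene of the chromosome 1 cluster, had 2.65 and 4.41 in sh-Ctrl and 0.812 and 0.636 in sh-CBAP cells. The groups did not overlap although the sh-Ctrl libraries differed, and the change on the log2 scale was -1.37 (standard error 0.19, adjusted p = 0.0142), a 4.87-fold lower mean FPKM. HIST2H2BC, which RefSeq holds as a transcribed pseudogene, was listed at 0 in both sh-Ctrl libraries and had 3.54 and 6.42 in sh-CBAP cells (adjusted p = 0.00874). No fold can be given against the listed 0. The calls on HIST1H2BK and HIST2H2BE were lost without either library labelled CBAP-reconstituted, which share the estimate of the spread (adjusted p of 0.0568 and 0.0573, and of 0.0533 and 0.0536). With only the 4 libraries of the shRNA set, the adjusted p of these 3 genes were 0.156, 0.148 and 0.0681 in the order given. Without sh-Ctrl replicate 2, 5 replication-dependent genes were called, against 8.19% of all genes tested. A pseudocount of 0.1 in place of 1 gave a log2 change of -2.10 for HIST2H2BE.

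HIST1H1C had 2.96 and 3.69 in sh-Ctrl and 2.13 and 2.22 in sh-CBAP cells, without overlap, and missed the threshold (log2 fold change -0.44, standard error 0.11, adjusted p = 0.0587). HIST2H2AC, an H2A gene, had log2 -0.42 (standard error 0.12, adjusted p = 0.0716). Of the H4 genes, HIST1H4E and HIST1H4H differed most between replicates. HIST1H4E was at 6.13 and 0 in sh-Ctrl and at 0.215 and 0.199 in sh-CBAP cells. HIST1H4H was at 5.10 and 0.223 in sh-Ctrl and at 0 and 0.984 in sh-CBAP cells. The summed H4 FPKM of sh-Ctrl, 17.6 and 7.48, carried this difference between its libraries.

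Among the variants of the shRNA set, 2 of 11 were called, both lower, where 12.3% of all genes tested were called and 8.7% were called lower. The median log2 change of the 11 was -0.02, beside -0.06 over all genes tested. H2AFX, the variant phosphorylated at DNA double-strand breaks, had 250 and 273 in sh-Ctrl and 203 and 191 in sh-CBAP cells. Its sh-CBAP libraries were both below its sh-Ctrl libraries (log2 fold change -0.41, standard error 0.058, adjusted p = 0.0155). H2AFY2, which encodes macroH2A2, a variant of silenced chromatin, had 1.91 and 1.97 in sh-Ctrl and 1.06 and 0.880 in sh-CBAP cells. The groups did not overlap and differed by a log2 fold change of -0.58 (standard error 0.088, adjusted p = 0.0177). Neither was called without either library labelled CBAP-reconstituted (adjusted p of 0.0618 and 0.0622 for H2AFX, and of 0.0624 and 0.0628 for H2AFY2), and H2AFY2 was not called without sh-Ctrl replicate 1 or 2 either (0.0503 and 0.052). With only the 4 libraries of the set, their adjusted p were 0.194 and 0.213, and with scaling by the median ratio that of H2AFX was 0.0506. With a pseudocount of 0.1 the log2 change of H2AFY2 was -0.94.

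H1FX and H2AFZ came close to the threshold. H1FX, a linker histone also called H1.10, had 392 and 316 in sh-Ctrl and 266 and 260 in sh-CBAP cells (log2 -0.42, standard error 0.099, adjusted p = 0.0501). H2AFZ, which encodes H2A.Z, a variant at promoters and enhancers, had 561 and 560 against 476 and 437 (log2 -0.30, standard error 0.073, adjusted p = 0.0553). Neither overlapped between the groups. Without sh-Ctrl replicate 1, or without sh-CBAP replicate 1, 4 variants in place of 2 were called, against 6.52% and 18.4% of all genes tested.

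H1F0, the linker histone H1.0 that accumulates in differentiated cells, was at 23.8 and 14.3 in sh-Ctrl and at 27.0 and 37.4 in sh-CBAP cells (log2 0.75, standard error 0.25, adjusted p = 0.11). H2AFV, the second gene for H2A.Z, was at 86.9 and 0 in sh-Ctrl and at 93.8 and 94.6 in sh-CBAP cells. The listed 0 of sh-Ctrl replicate 2 set its spread, and no fold is given. H2AFY, which encodes macroH2A1, had a log2 change of -0.06 (standard error 0.061, adjusted p = 0.536). The H3.3 genes had log2 changes of 0.03 for H3F3A (adjusted p = 0.903) and 0.13 for H3F3B (adjusted p = 0.312). H3F3C, which encodes the hominid variant H3.5, had a change of 0.04 (adjusted p = 0.946).

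**Figure D2:**
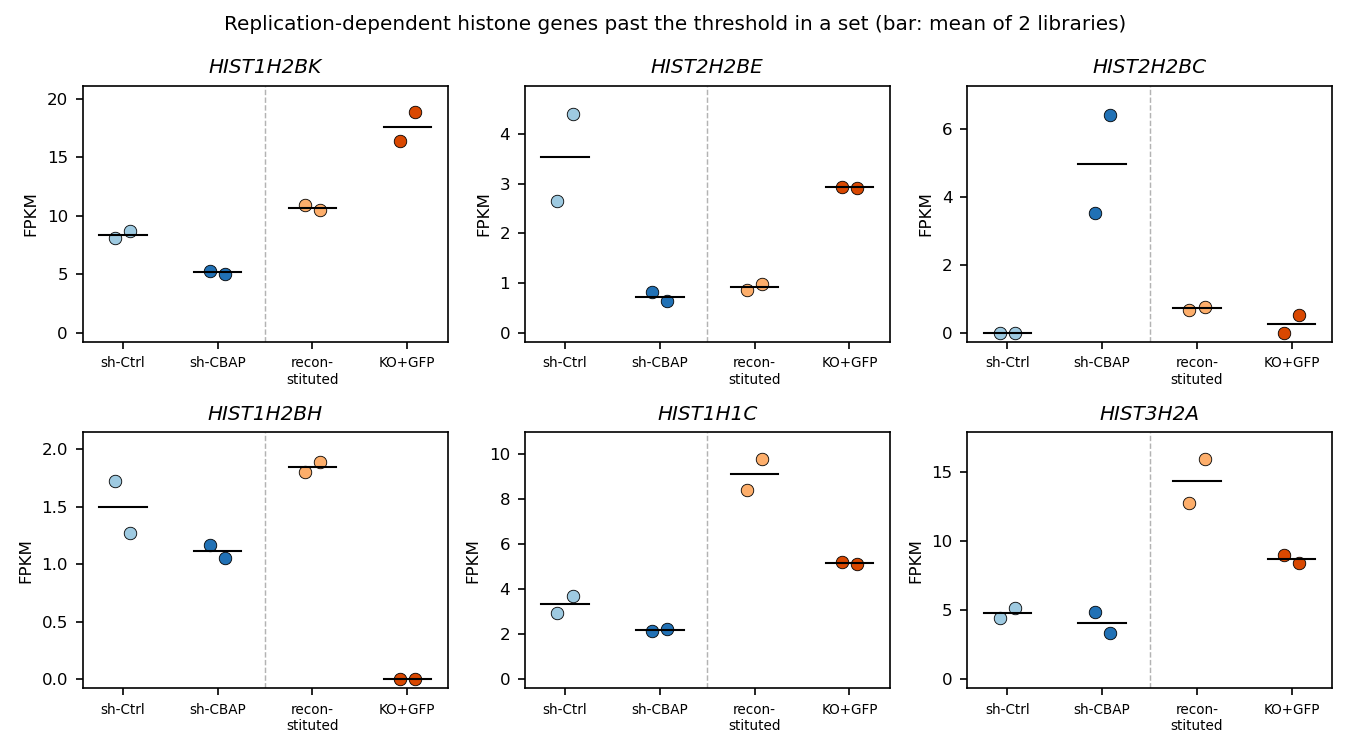
FPKM (linear axes from 0) of the 6 replication-dependent genes past the threshold in at least 1 set, with each library as a point and the mean of 2 libraries as a bar. HIST1H2BK and HIST2H2BE are lower in sh-CBAP than in sh-Ctrl cells and higher in CBAP-KO+GFP cells than in the libraries labelled CBAP-reconstituted.

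In the CRISPR set, 5 of the 17 tested replication-dependent genes were called, against 49.9% of all genes tested. HIST1H2BK and HIST2H2BE were higher in CBAP-KO+GFP cells, where 23.9% of all genes were higher, and HIST1H1C, HIST1H2BH and HIST3H2A were lower, where 25.9% were lower. The share called was below the background. Their median log2 change was -0.27, beside 0 over all genes tested, and it was 0.01 for the 2 members with a mean FPKM of at least 5.

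HIST1H2BK had 10.9 and 10.5 in the libraries labelled CBAP-reconstituted and 16.4 and 18.8 in CBAP-KO+GFP cells. The CBAP-KO+GFP libraries were both higher, with a log2 fold change of 0.67 (standard error 0.085, adjusted p = 0.00184). HIST2H2BE had 0.865 and 0.977 against 2.92 and 2.92, without overlap. This was a log2 fold change of 1.03 (standard error 0.19, adjusted p = 0.0069) and a 3.17-fold higher mean FPKM, and with a pseudocount of 0.1 the log2 change was 1.57. For both genes the direction was opposite to that in the shRNA set. The levels of HIST2H2BE in CBAP-KO+GFP cells lay within its range in sh-Ctrl cells, and those labelled CBAP-reconstituted lay close to sh-CBAP cells.

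HIST1H1C had 8.41 and 9.75 in the libraries labelled CBAP-reconstituted and 5.20 and 5.11 in CBAP-KO+GFP cells. Its log2 fold change of -0.71 (standard error 0.11, adjusted p = 0.0039) had the sign it had in the shRNA set. HIST3H2A had 12.8 and 15.9 against 8.96 and 8.39, again without overlap (log2 -0.66, standard error 0.17, adjusted p = 0.0238). This call was lost without CBAP-reconstituted replicate 2 (adjusted p = 0.13) and without CBAP-KO+GFP replicate 1 or 2 (0.0689 and 0.0963). HIST1H2BH, an H2B gene of the chromosome 6 cluster, had 1.80 and 1.89 in the libraries labelled CBAP-reconstituted and a listed 0 in each CBAP-KO+GFP library (adjusted p = 0.000313). HIST1H4C was listed at 0 in the same libraries and had 1.12 and 0.438 in those labelled CBAP-reconstituted.

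Of the 11 variants in the CRISPR set, 1 was called higher and 4 lower, with a median log2 change of -0.18. The 5 of 11 lay near the background of all genes. H2AFX had 329 and 328 in the libraries labelled CBAP-reconstituted and 243 and 246 in CBAP-KO+GFP cells. Its log2 fold change of -0.42 (standard error 0.058, adjusted p = 0.00249) was close to that in the shRNA set, and after quantile normalization it was -0.15 (adjusted p = 0.111). H2AFY2 had 5.47 and 5.13 against 0.482 and 0.562. This was the largest change of a variant gene, with a log2 fold change of -2.05 (standard error 0.088, adjusted p = 4.85e-05) and a 10.2-fold lower mean FPKM, and with a pseudocount of 0.1 the log2 change was -3.12. H2AFZ had 629 and 599 against 403 and 362, without overlap (log2 -0.68, standard error 0.073, adjusted p = 0.00103). After quantile normalization its change was -0.31 (adjusted p = 0.0303).

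In the CRISPR set, H3F3A and its processed copy H3F3AP4 were called in opposite directions, and H3F3B was lower without overlap but did not pass the threshold. H3F3A had 3.54 and 3.44 in the libraries labelled CBAP-reconstituted and 1.26 and 1.70 in CBAP-KO+GFP cells (log2 -0.86, standard error 0.11, adjusted p = 0.00185). H3F3AP4, listed as a pseudogene, had 250 and 256 against 301 and 306 (log2 0.26, standard error 0.051, adjusted p = 0.00866). Its call was lost without CBAP-reconstituted replicate 1 or 2 (adjusted p of 0.0712 and 0.0532) or CBAP-KO+GFP replicate 2 (0.0592), and after quantile normalization its change was 0.53. H3F3B, the other gene for H3.3, had 235 and 242 against 210 and 214 (log2 -0.17, standard error 0.076, adjusted p = 0.121).

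H1F0 had 23.2 and 23.2 in the libraries labelled CBAP-reconstituted and 38.1 and 38.4 in CBAP-KO+GFP cells (log2 0.70, standard error 0.25, adjusted p = 0.0631). The groups stood well apart, and the spread of the fit was shared with the shRNA set, in which the libraries of H1F0 differed more. H2AFV had 67.8 and 67.2 against 94.9 and 98.4 (log2 0.51, adjusted p = 0.853). Without sh-Ctrl replicate 2, which holds the listed 0, the same change of H2AFV had an adjusted p of 0.00112. H1FX had 378 and 375 against 433 and 429 (log2 0.19, standard error 0.099, adjusted p = 0.157). H2AFY had 214 and 214 against 187 and 192 (log2 -0.18, standard error 0.061, adjusted p = 0.0554), and H3F3C was at 2.91 and 2.25 against 1.73 and 1.58 (log2 -0.43, standard error 0.25, adjusted p = 0.212). Without sh-Ctrl replicate 1 or 2, 9 of the 11 variants were called in the CRISPR set, where 50.2% of all genes were called each time. With only the 4 libraries of that set all 11 were, and so were 69.1% of all genes.

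**Figure D3:**
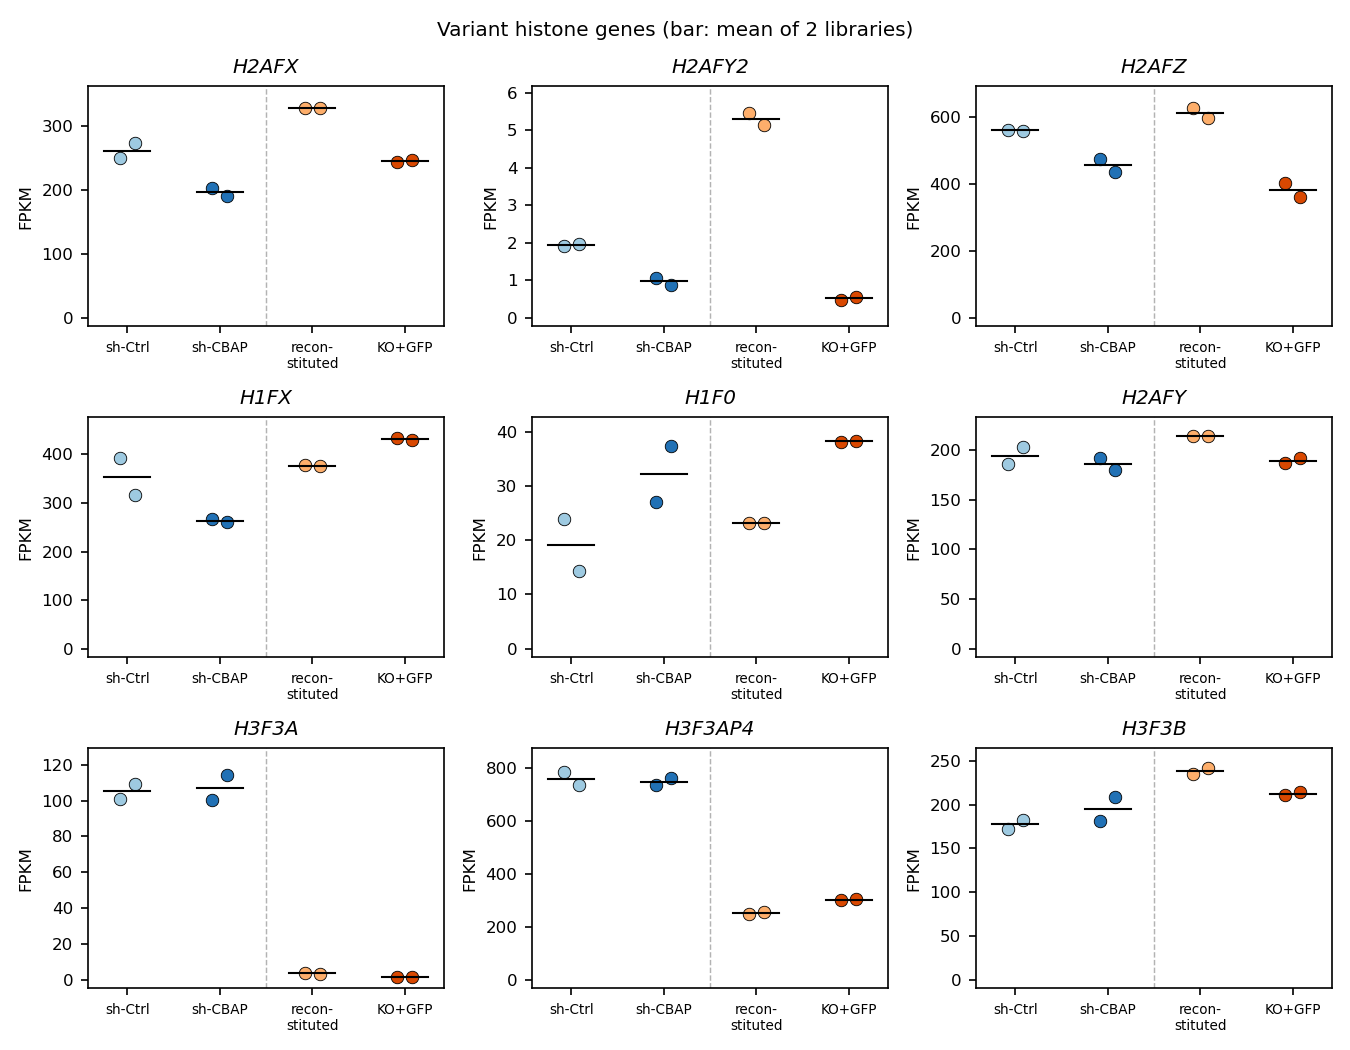
FPKM (linear axes from 0) of 9 variant histone genes, with each library as a point and the mean of 2 libraries as a bar, and a dashed line between the sets. H2AFX, H2AFY2 and H2AFZ are lower in the CBAP-deficient condition of both sets, and H3F3A and H3F3AP4 stand lower in all CRISPR-set libraries than in all shRNA-set libraries.

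The change itself was compared between the sets by the contrast of the shRNA change minus the CRISPR change. It was called for 9 of the 28 tested histone genes, 4 replication-dependent and 5 variant, against 33.8% of all genes tested. For HIST1H2BK the contrast was -1.28 (standard error 0.12, adjusted p = 0.0014) and for HIST2H2BE -2.40 (standard error 0.27, adjusted p = 0.00244). HIST2H2BC (adjusted p = 0.00448) and HIST1H2BH (adjusted p = 0.00359), each with a condition listed at 0, were the other replication-dependent genes. All 4 were among the 8 H2B entries tested, and HIST2H2BC of these is held as a pseudogene. The contrast was 1.47 for H2AFY2 (standard error 0.12, adjusted p = 0.000995), whose change was larger in the CRISPR set, and 0.89 for H3F3A (standard error 0.15, adjusted p = 0.00956). H1FX differed by -0.61 (standard error 0.14, adjusted p = 0.023), H2AFZ by 0.39 (standard error 0.10, adjusted p = 0.0362) and H3F3AP4 by -0.28 (standard error 0.072, adjusted p = 0.0324). These last 3 contrasts depended on single libraries, and those of H2AFZ and H3F3AP4 also on the scaling. After quantile normalization the contrast of H2AFZ was 0.06 (adjusted p = 0.73), and with scaling by the median ratio it was 0.46 (adjusted p = 0.0505). That of H3F3AP4 was -0.57 (adjusted p = 0.00144) and -0.21 (adjusted p = 0.0803) in the same order. H1FX was not called without any 1 of the CRISPR-set libraries (adjusted p of 0.0657 to 0.0868). H2AFZ was called without sh-CBAP replicate 2 or CBAP-KO+GFP replicate 1 but not without any other library (0.0586 to 0.135). H3F3AP4 was called without sh-Ctrl replicate 2 or either sh-CBAP library but not without any other (0.0605 to 0.135). For H2AFX the contrast was 0.02 (standard error 0.083, adjusted p = 0.903).

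With the 4 CBAP-deficient libraries set against the 4 CBAP-expressing ones, limma called 0 of the 28 histone genes and 0.621% of all genes. At an unadjusted p under 0.05 there were 2 replication-dependent genes and 4 variants, beside 2397 of the 11427 genes tested. The lowest adjusted p was that of H2AFZ (log2 -0.49, standard error 0.10, adjusted p = 0.076). When the model also held the set as a covariate, 5 of the 28 were called, against 12.3% of all genes tested. HIST1H1C (log2 -0.57, adjusted p = 0.0246), H2AFX (-0.41, 0.0112), H2AFY2 (-1.32, 0.0384) and H2AFZ (-0.49, 0.0298) were lower and H1F0 (0.72, 0.0401) was higher in CBAP-deficient cells.

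**Figure D4:**
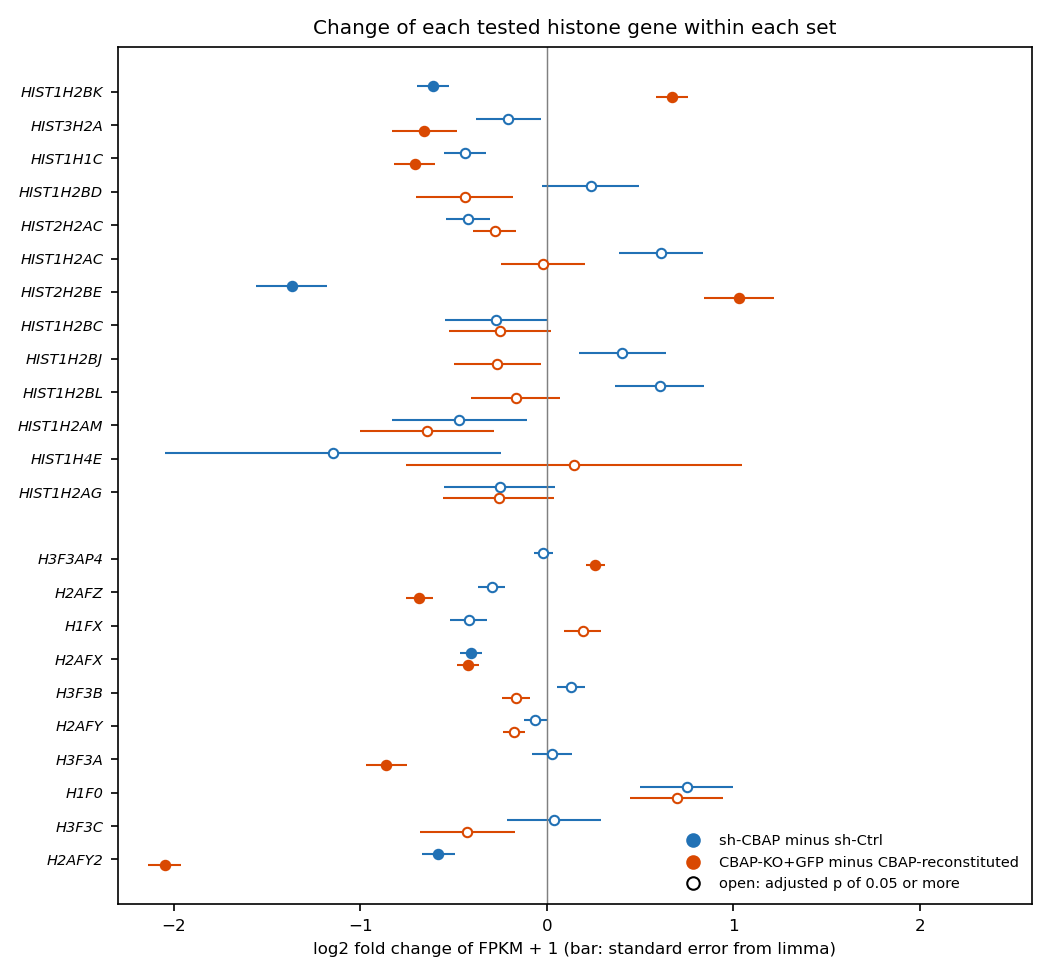
log2 fold change of FPKM + 1 within each set for 23 tested histone genes, with the standard error from limma as a bar and filled points at an adjusted p under 0.05. The 4 genes with a condition listed at 0 and H2AFV are left out. HIST1H2BK and HIST2H2BE are the genes with filled points on opposite sides of 0.

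Several histone genes have near-identical copies, whose reads the authors' counting could split, so their values are uncertain. In the canonical transcripts of 44 placed genes, every stretch of 100 bases, the length of a read, was searched for exact copies elsewhere in GRCh37. Some stretch occurred elsewhere for 16 genes, 11 of them replication-dependent. The share of such stretches was 100% in HIST2H2AA4, HIST2H4A and HIST2H4B, 91.3% in HIST1H4K, 90.7% in HIST1H4J, 87.8% in H3F3A and 87.5% in H3F3AP4. The transcript of H3F3A, of 1070 bases, matched the locus of H3F3AP4 (chr2:175584528-175585568) over 1042 aligned positions with 1041 identical.

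These 7 genes were all lower in each of the 4 CRISPR-set libraries than in any of the 4 shRNA-set libraries. None of the other 35 placed single entries was, and 6.07% of all entries of the table were. The limit of 80% that separates the 7 was set after the values were seen, and the part of shared sequence in the levels was not tested. H3F3A was at 101 and 109 in sh-Ctrl and 100 and 114 in sh-CBAP cells but at 1.26 to 3.54 in the CRISPR set, a 42.8-fold difference in mean FPKM. H3F3AP4 ranged from 736 to 785 in the shRNA set and from 250 to 306 in the CRISPR set, a 2.71-fold difference. H3F3B, with 1.34% of its stretches elsewhere, was higher in every CRISPR-set library than in any shRNA-set library. The sets may have been processed apart, so levels set across them are given side by side with no test.

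HIST2H4A and HIST2H4B had listed zeros throughout the CRISPR set and 0.741 to 1.19 in the shRNA set. Their values were equal in 7 of 8 libraries and differed by 1.84e-05 FPKM in the other. HIST2H2AA3, which could not be placed by name, likewise had listed zeros in the 4 CRISPR-set libraries and 1.72 to 2.83 in the shRNA set. In all, 36 of 376 histone values were listed at 0, in 17 genes, of which 16 were replication-dependent. HIST1H2BK had 22.5% of its stretches elsewhere and HIST2H2BE 2.59%, while HIST1H1C, HIST3H2A and HIST1H2BH had none.

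Genes that make, process and carry histones were counted from lists written by symbol. Of 21 tested genes of histone transcription and mRNA processing, 0 were called higher and 3 lower in sh-CBAP cells, against 12.3% of all genes called, with a median log2 change of -0.06, as over all genes. SLBP, which binds the stem-loop, had 89.8 and 93.9 in sh-Ctrl and 64.0 and 74.0 in sh-CBAP cells (log2 -0.41, standard error 0.076, adjusted p = 0.0274). CDK2, the kinase that activates NPAT, changed by -0.42 (adjusted p = 0.0264), and its partner CCNE1, cyclin E1, by -0.73 (adjusted p = 0.0321). In the CRISPR set 4 were higher and 7 lower, near the 49.9% of all genes called, with a median of -0.15 beside 0 over all genes. NPAT, the activator of histone gene transcription in S phase, was at 7.46 and 7.22 in the libraries labelled CBAP-reconstituted and at 10.5 and 10.3 in CBAP-KO+GFP cells (log2 0.45, standard error 0.068, adjusted p = 0.00335). ZNF473, a part of the U7 processing machinery, and CASP8AP2, the NPAT partner FLASH, rose by 0.50 (adjusted p = 0.00184) and 0.48 (adjusted p = 0.00333). CSTF2, a cleavage stimulation factor subunit, fell by 0.77 (adjusted p = 0.000477) and UPF1, which acts in histone mRNA decay, fell by 0.62 (adjusted p = 0.00213). E2F1 was at 28.8 in both libraries labelled CBAP-reconstituted and listed at 0 in the other 6, so no fold is given. SLBP did not pass there (log2 -0.13, adjusted p = 0.205).

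Of 28 tested histone chaperones, 0 were higher and 5 lower in sh-CBAP cells (median log2 -0.10), where 12.3% of all genes were called. In CBAP-KO+GFP cells 5 were higher and 7 lower (median 0.01), near the 49.9% of all genes. In sh-CBAP cells CHAF1B, a CAF-1 subunit that deposits H3 and H4 at replication, changed by -0.48 (standard error 0.046, adjusted p = 0.00547) and RBBP4, its partner, by -0.61 (standard error 0.11, adjusted p = 0.0278). RBBP4 went the other way in CBAP-KO+GFP cells (log2 0.36, standard error 0.11, adjusted p = 0.0418), and CHAF1B did not pass there (log2 0.007, adjusted p = 0.917). In CBAP-KO+GFP cells UBN2 of the HIRA complex rose by 0.67 (adjusted p = 0.00341) and NASP, a carrier of H3 and H4, rose by 0.59 (adjusted p = 0.00271). NPM1, a nucleolar chaperone, fell by 0.71 (adjusted p = 0.00249) and DAXX, a chaperone of H3.3, fell by 0.41 (adjusted p = 0.0024). The centromeric H3 variant CENPA, outside the naming rule, had 56.5 and 58.6 against 42.7 and 44.4 in the CRISPR set (log2 -0.39, standard error 0.11, adjusted p = 0.0317) and did not pass in the shRNA set (log2 -0.27, adjusted p = 0.171).

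Of 31 S phase genes, 0 were higher and 7 lower in sh-CBAP cells, where 3.62% of all genes were higher and 8.7% lower. Their median log2 change was -0.12, beside -0.06 over all genes. FEN1, a flap nuclease of lagging-strand synthesis, changed by -0.47 (adjusted p = 0.00468) and TYMS, thymidylate synthase, by -0.31 (adjusted p = 0.0134). In CBAP-KO+GFP cells 1 was higher and 11 were lower, where 23.9% of all genes were higher and 25.9% lower. The share called was below the 49.9% of all genes. The median was -0.11 beside 0 over all genes. TK1, thymidine kinase, changed by -0.68 (adjusted p = 0.00127) and MCM2, of the replicative helicase, by -0.56 (adjusted p = 0.000532). These values moved beside the histone genes, and their part in the histone levels was not tested.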

How the data were processed

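RNA-seq of the 8 Jurkat libraries was done by the authors as 100-bp paired-end reads, aligned to hg19 with TopHat, and the deposited FPKM were estimated with Cufflinks (cuffdiff). Tool names and CASAVA 1.8 are from the submitters' processing notes. The gene annotation, the scaling and whether the sets were processed together are not given in the sources used here. No counts were used, so the depth per library is unknown and 2 libraries per condition set the precision.

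The deposited FPKM were transformed to log2(FPKM + 1), which understates the change of low genes. Genes averaging 1 FPKM or more over the libraries, 11427 in all, were tested with limma 3.58.1 (R 4.3.3, a mean per condition over all 8 libraries, empirical Bayes moderation with a trend). Adjustment was by Benjamini-Hochberg, with calls at an adjusted p under 0.05. The pooled comparison had no covariate. The model was tested on simulated data. Of 48 names, 46 matched RefSeq synonyms and 44 were placed on GRCh37. Copies were searched with BLAST+ 2.17.0, and tables were handled with Python 3.11.15 and pandas 2.3.3.

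Every histone gene could be named. Full statistics went to those called within a set and to the listed variants, and up to 4 called genes per direction were named from each list. A gene of the S phase list is not reported here. The members and lists were chosen with earlier results of these data known. The alternatives were another pseudocount, filter, scaling and variance model, listed zeros left out, each library left out, each set alone, a set covariate and the replicate block.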

Additional observations from a re-analysis of the deposited data

Results flagged for a closer look

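Among 56 groups of 4 libraries (CBAP-expressing or CBAP-deficient, for the 28 tested histone genes), 5 held a value far from the other 3 of its group by Dixon's criterion. Its rate of about 1 in 20 groups, or 2.8 here, holds for 4 values of a single population. Each group joined libraries of both sets, so the 5 cannot be judged against that rate. HIST2H2AC was at 2.41 in sh-Ctrl replicate 1, below the other CBAP-expressing libraries. HIST1H4E was at 6.13 in sh-Ctrl replicate 1 and at 1.52 in CBAP-KO+GFP replicate 1, each above the rest of its group. H1F0 was at 14.3 in sh-Ctrl replicate 2 and at 27.0 in sh-CBAP replicate 1, each below the rest of its group.

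The change differed between the sets, as the shRNA change minus the CRISPR change on the log2 scale, by -1.28 for HIST1H2BK, -2.40 for HIST2H2BE, -0.28 for H3F3AP4, -0.61 for H1FX, 0.39 for H2AFZ, 0.89 for H3F3A and 1.47 for H2AFY2. The fitted contrasts of HIST2H2BC (3.02) and HIST1H2BH (1.27) rest on a condition listed at 0, depend on the pseudocount and are no bound. The adjusted p of these 9 contrasts from limma stand with them in the account of the difference between the sets.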

How the results depend on the processing

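With 2 libraries per condition and no counts, precision could not be improved by depth. Over 24 called changes of single histone genes, 338 of 381 alternatives left the gene called, 43 lost the call and 0 reversed it. In sh-CBAP against sh-Ctrl cells, the count of replication-dependent genes was 3, with 1 at a mean FPKM of at least 5, 0 with only the 4 libraries of the set and 1 to 5 with a library left out, and the count of variants was 2, with 4 where genes with a listed zero were left out, 0 with only the set's libraries and 0 to 4 with a library left out. In CBAP-KO+GFP cells against those labelled CBAP-reconstituted, the counts were 5 and 5. The first was 2 at a mean FPKM of at least 5 and 4 to 6 with a library left out, and the second was 11 with only the set's libraries and 4 to 9 with a library left out. The difference between the sets was called for 9 genes, 5 at a mean FPKM of at least 5, and 6 to 10 with a library left out. The pooled comparison called 0 in every alternative except the set covariate (5). The median log2 change of the replication-dependent genes turned from -0.24 to 0.0167 in the shRNA set without sh-Ctrl replicate 1 (-0.3358 to 0.0167 with a library left out, and -0.3849, -0.4076 and -0.1279 with a pseudocount of 0.1, the filter of 5 FPKM and quantile normalization) and from -0.27 to 0.007374 in the CRISPR set under the filter of 5 FPKM, where 2 genes were tested. For the other counts that moved, the cause was not tested. The share of all genes tested that was called moved as well, also with a library left out. In the shRNA set it was 12.3% in the main fit and 12.2% at a mean FPKM of at least 5. It was 16.5% without genes with a listed zero and 0.766% with only the set's libraries. In the CRISPR set it was 49.9%, 51.3%, 55.4% and 69.1% in the same order. Where a library was left out, the remaining one of its condition was assumed to vary like the other conditions. Replicate differences correlated weakly across genes between sh-CBAP and sh-Ctrl (Pearson's r 0.146) and hardly within the CRISPR set (0.0239). Between conditions of different sets r was -0.0629 to -0.000961. The replicate block was common to both sets, so a pairing within the shRNA set alone was not tested. With the replicate block the counts were 3 and 2 for the shRNA libraries, 5 and 5 for the CRISPR libraries, 8 for the difference (H3F3AP4 was lost, adjusted p = 0.0574) and 0 pooled, and over all genes tested the shRNA-set count was 776 in place of 1408.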
